A study of Rattus norvegicus with 24 samples.

Results

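The arginine and proline metabolism genes described here are 10 named genes: the arginine transporter Slc7a2, the arginases Arg1 and Arg2, the inducible nitric oxide synthase Nos2, the arginine-forming enzyme Ass1, the polyamine enzyme Odc1, the proline-forming enzymes Oat, Aldh18a1 and Pycr1, and the proline-degrading enzyme Prodh. They were chosen by name from 18166 named genes on the array, and each was measured by 1 probe set out of 36495 tested. RNA came from bone around implants in the tibia of male Sprague Dawley rats. A plug of poly(lactide-co-glycolide), PLGA, carrying lithium carbonate (Li+) and a plug made with sodium carbonate and no lithium (Ctrl) were placed in each rat, so every rat carried both implants and there was no unoperated or empty site. According to the study's methods, a plug of each kind was put into the same tibia. Whether lithium reached the Ctrl sites was not tested here. Rats were killed 7 or 28 days after surgery, and the bone was taken with a trephine burr. Each of the 4 groups holds 6 arrays, from rats 4, 5, 7, 10, 11 and 15 at day 7 and from rats 21, 23, 27, 28, 29 and 30 at day 28. The ages of the rats are not given in the sources used here.

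Arginine enters cells through cationic amino acid transporters, of which Slc7a2 encodes one that macrophages increase when they are activated. Inside the cell, nitric oxide synthase and arginase use the same arginine. The first makes nitric oxide and citrulline, and the second makes urea and ornithine, from which polyamines, through ornithine decarboxylase, or proline, through ornithine aminotransferase, can be formed. Proline is a major residue of collagen, the main protein of bone matrix, and in rodents Nos2 and Arg1 are used as markers of macrophages in different activation states.

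Promoter sequence was at hand in RefSeq (GRCr8) for 4 of the 10 genes, Oat, Ass1, Odc1 and Pycr1. Oat and Pycr1 are shown because, of all pairs among the 10 genes, their signals varied together most closely, as described below. The first line is the 250 bases before the start of Oat (chr1:196797755-196798004, minus strand, outside the annotated gene), with CACGT in capitals, which is the hypoxia response motif ACGTG read on the other strand. The second is a stretch of 30 bases of the minus strand (chr10:106420925-106420954), within the annotated Pycr1 gene, with TGATGCAA in capitals, which begins 131 bases before the start and matches TGATGNAA, the composite element of C/EBP and ATF4.
Oat: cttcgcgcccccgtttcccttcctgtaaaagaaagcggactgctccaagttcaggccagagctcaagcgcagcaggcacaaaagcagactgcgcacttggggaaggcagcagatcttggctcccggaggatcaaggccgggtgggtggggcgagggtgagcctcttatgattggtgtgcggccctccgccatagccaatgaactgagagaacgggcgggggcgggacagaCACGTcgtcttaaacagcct
Pycr1: ggtcctgtgtaTGATGCAAtgtacaaggct
ATF4 is known from mouse and human cells as an activator of Pycr1 and Aldh18a1 when amino acids are short. Both strands of the 250 bases before each start were searched. TGATGNAA was found in 3.4% of 33469 promoters in the table and, among the 4 genes, in Pycr1 alone. ACGTG was found in 16.6% of promoters and in Oat and Odc1. The NF-kB motif GGGNNNNNCC, found in 42.3% of promoters, matched in Ass1, at 2 overlapping places, and in Pycr1. No other matches overlapped. The motifs of AP-1 (TGANTCA), STAT6 (TTCNNNNGAA) and C/EBP (TTGCNNAA), found in 6.34%, 6.25% and 9.22% of promoters, had 0 matches in the 4 genes. A match of these letters is a description of the sequence and was not tied to any signal measured here.

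The signals are log2 values, so a difference of 1 is a doubling. Col1a1, Ibsp and Bglap of osteoblasts and Ctsk and Mmp9 of osteoclasts, genes of the labelled bone, lay above the 98th percentile of probe sets. Their means were 13.42, 12.37, 11.95, 13.28 and 13.32. Lower were Alpl, Runx2 and Sp7 of osteoblasts (percentiles 97.9, 92.5 and 80.1) and Calcr of osteoclasts (58.9). Neutrophil genes ranked as high (98.7 to 99.9), as did most erythroid genes (94.9 to 99.6), so these ranks do not single out bone. The mean correlation of an array with the others of its group ranged from 0.979 to 0.991 and was lowest for the Ctrl arrays of rat 10 (0.979) and rat 23 (0.983). A score of 5 skeletal muscle genes was far higher on 3 day 28 arrays (Ctrl of rat 23, 4.71; Li+ of rat 27, 4.32; Ctrl of rat 29, 2.96) than on the other 21 arrays (-0.80 to 0.39). Signals of different probe sets cannot be set against each other as amounts of RNA, but by rank among all probe sets 8 of the 10 genes lay above the median signal of 7.31. Arg1, with a mean of 7.27, and Arg2, with a mean of 6.69, lay below it.

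The largest differences among the 10 genes were between days, in the arginine transporter and in the cytosolic arginase. Over both sites of each rat, Slc7a2 and Arg1 fell from day 7 to day 28, by 1.09 and 1.11 on the log2 scale. Nos2 and the genes of proline synthesis were lower at day 28 by smaller steps that did not pass correction over all probe sets. Genes of arginine formation (Ass1), polyamine synthesis (Odc1) and proline breakdown (Prodh) had higher means at day 28, and these also did not pass. Between Li+ and Ctrl sites of the same rats, 0 of the 10 genes passed the test at either day.

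**Figure D1:**
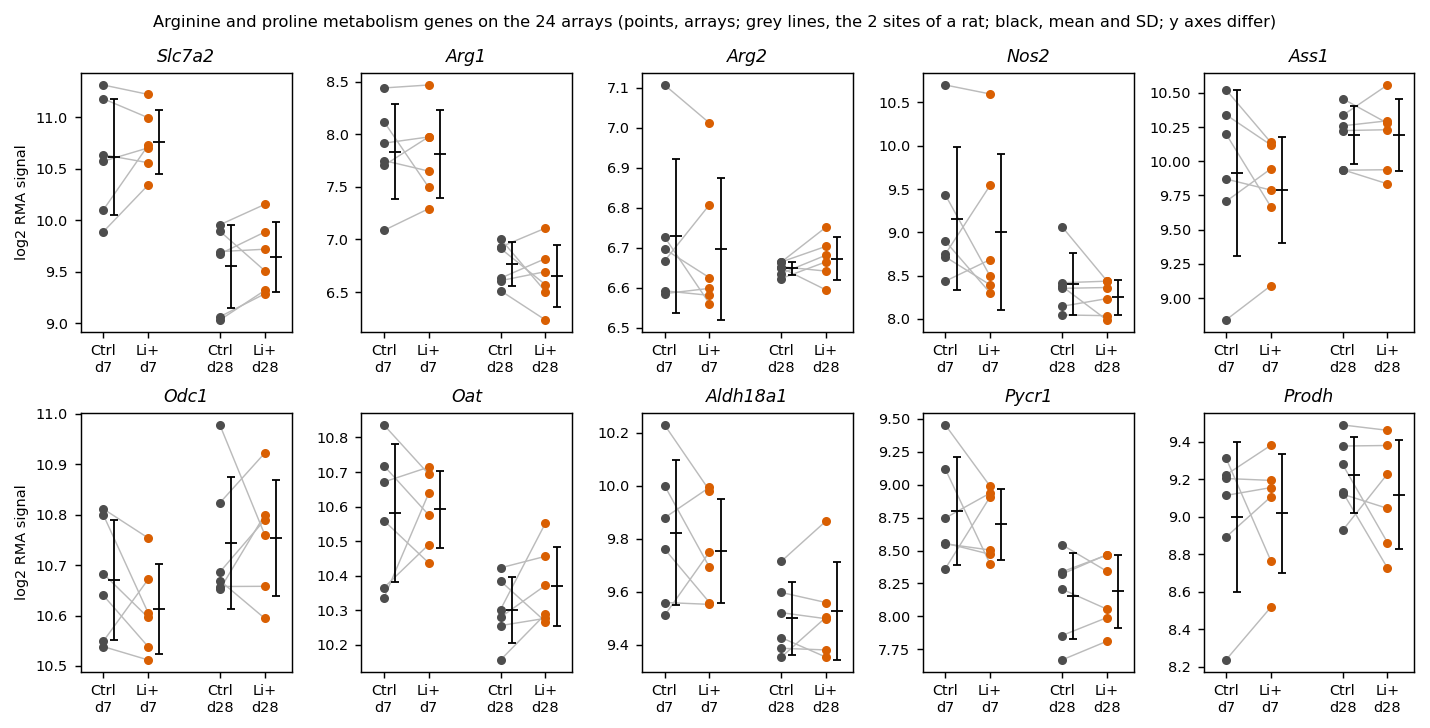
Log2 signal of each of the 10 genes on the 24 arrays, by implant and day (grey, Ctrl; orange, Li+; d7 and d28, days 7 and 28). Points are arrays, grey lines join both sites of a rat, and black marks give the mean and SD of 6 arrays; y axes differ between genes. Slc7a2 and Arg1 stand lower at day 28, while the lines between sites run in both directions.

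Slc7a2 signal at Ctrl sites ranged from 9.89 to 11.31 with a median of 10.60 at day 7, and from 9.03 to 9.96 with a median of 9.69 at day 28. At Li+ sites it ranged from 10.34 to 11.22 (median 10.71) at day 7 and from 9.29 to 10.15 (median 9.62) at day 28. The Li+ groups of both days did not overlap, and the Ctrl groups overlapped because the Ctrl site of rat 10 lay at 9.89, below 2 of the day 28 sites. The highest day 7 signal with either implant was that of rat 5. Averaged over both sites of each rat, Slc7a2 fell by 1.09 on the log2 scale (SE 0.201, 95% interval -1.52 to -0.65, 2.12-fold, limma adjusted p = 0.0326, 6 against 6 rats), and all day 28 rats were below all day 7 rats. It fell by 1.11 at Li+ sites (SE 0.170, limma adjusted p = 0.0380). At Ctrl sites the difference was -1.06 (SE 0.252, limma adjusted p = 0.131). The adjusted p over both sites depended on single rats: it stayed below 0.05 when rat 10 or rat 28 was left out and rose, at most to 0.0815, when any of the other 10 was, while the difference ranged from -1.20 to -0.97. RNA was taken from whole tissue, so fewer cells of a type and less RNA per cell cannot be told apart here or in any result that follows.

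Arg1 encodes the cytosolic arginase of liver and of macrophages activated by interleukin 4. Its signal at Ctrl sites ranged from 7.09 to 8.44 (median 7.83) at day 7 and from 6.51 to 7.00 (median 6.77) at day 28. At Li+ sites it ranged from 7.29 to 8.47 (median 7.81) at day 7 and from 6.23 to 7.11 (median 6.63) at day 28. The days did not overlap with either implant. Rat 5 again gave the highest day 7 signal at both sites and rat 10 the lowest at both. Over both sites of each rat, Arg1 fell by 1.11 on the log2 scale (SE 0.167, 95% interval -1.47 to -0.75, 2.16-fold, limma adjusted p = 0.0168). It fell by 1.16 at Li+ sites (SE 0.189, limma adjusted p = 0.0406), and at Ctrl sites, where the days were as far apart, the difference of -1.07 (SE 0.184) stood just outside the threshold (limma adjusted p = 0.0555). Leaving out rat 29 took the adjusted p over both sites to 0.0506; with any other rat left out it stayed below 0.05. The day 28 signals of Arg1 lay below the median of all probe sets, and whether they stood above background was not tested, so the fold is that of the signals. The exact permutation test for Arg1 gave p = 0.00216 with each implant, the smallest that 6 against 6 can give.

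At Li+ sites the calls of Slc7a2 and Arg1 both held without rat 5, 10, 28 or 30 and both were lost without any of the other 8 (adjusted p up to 0.105). Without rats 23, 27 and 29, which carry the arrays high in muscle genes, the differences over both sites were -1.02 for Slc7a2 and -1.11 for Arg1, of nearly the same size, with adjusted p of 0.347 and 0.262 in a fit of 6 against 3 rats.

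Arg2, the mitochondrial arginase, had a mean signal below the median of all probe sets and did not pass the test between days. Its signal ranged from 6.59 to 7.11 (median 6.68) at Ctrl sites and from 6.56 to 7.01 (median 6.61) at Li+ sites at day 7. At day 28 the ranges were 6.62 to 6.66 (median 6.65) and 6.59 to 6.75 (median 6.67). Rat 10 was the highest at both of its sites, and the day 28 ranges lay within those of day 7. The difference over both sites was -0.05 (SE 0.0728, limma adjusted p = 0.776), with a 95% interval of -0.21 to 0.10 that does not reach the size of the Arg1 difference. Whether the Arg2 signal stood above background was not tested. The interval is therefore that of the signals and does not show that Arg2 RNA changed less than Arg1 RNA.

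Nos2, the inducible synthase that makes nitric oxide in activated macrophages and other cells, varied more between rats than any other of the 10 genes. At Ctrl sites its signal ranged from 8.44 to 10.70 (median 8.82) at day 7 and from 8.05 to 9.07 (median 8.36) at day 28. At Li+ sites the ranges were 8.30 to 10.60 (median 8.59) and 7.99 to 8.44 (median 8.30). Both sites of rat 5 stood above every other array, and the days overlapped with each implant. The difference over both sites was -0.75 (SE 0.304, unadjusted p = 0.0276, limma adjusted p = 0.223). Much of its size came from rat 5, without which it was -0.44 (limma unadjusted p = 0.0546), -0.45 at Ctrl sites alone and -0.43 at Li+ sites alone.

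**Figure D2:**
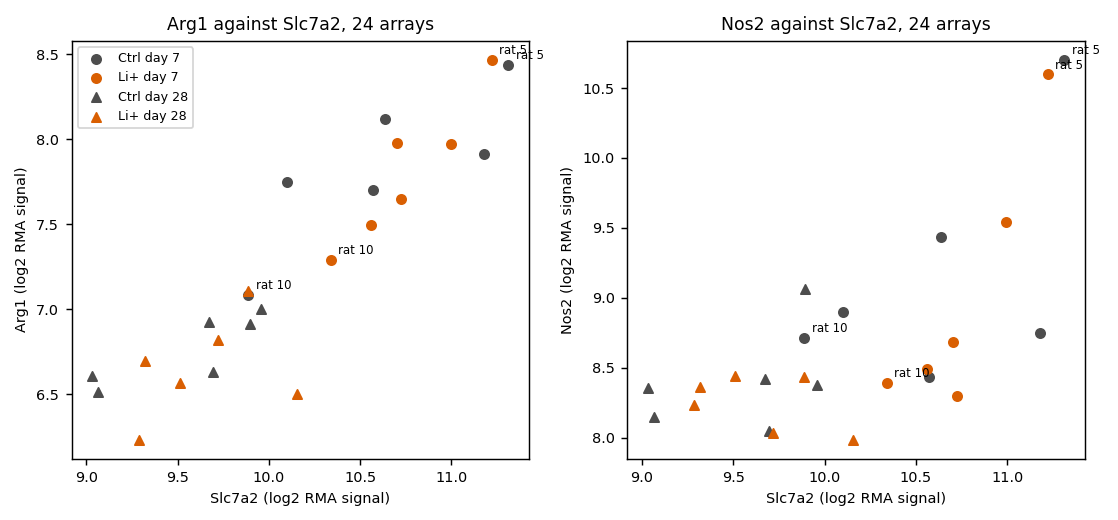
Arg1 (left) and Nos2 (right) against Slc7a2, in log2 signal, with 1 point for each of the 24 arrays (grey, Ctrl; orange, Li+; circles, day 7; triangles, day 28). Both sites of rat 5 lie at the upper right of both panels, and the Ctrl site of rat 10 lies among the day 28 sites for Slc7a2. For Arg1 that site (7.09) lies above every day 28 site but the Li+ site of rat 30 (7.11).

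Within groups, Arg1 varied with both Slc7a2 and Nos2. After the group means were removed, the correlation over 24 arrays of 12 rats was 0.745 between Slc7a2 and Arg1 and 0.736 between Arg1 and Nos2, and it was 0.512 between Slc7a2 and Nos2. Both sites of a rat are among these arrays, so the points are not independent, and the values are given as a description. Nos2 stood highest on both arrays of rat 5, and how far its correlations rest on that rat was not tested. Outside the 10 genes, among 11116 named genes above the median signal, those most like Slc7a2 over the 24 arrays were Met, the receptor of hepatocyte growth factor (r = 0.937), the copper transporter Slc31a1 (0.934), the glucose transporter Slc2a1 (0.928), Sema3c (0.921) and the chemerin receptor Cmklr1 (0.918). Those most like Arg1 were Prg4, which encodes lubricin (0.894), the desmosomal cadherin Dsg2 (0.893), the monocyte chemokine Ccl7 (0.889), fibronectin, Fn1 (0.887), and again Slc2a1 (0.881). These r include the step between days. With group means removed they were 0.772 to 0.808 for the genes most like Slc7a2 and 0.549 to 0.776 for those most like Arg1.

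Ass1 joins citrulline and aspartate in the step before arginine is formed. Its signal ranged from 8.84 to 10.52 (median 10.04) at Ctrl sites and from 9.09 to 10.14 (median 9.87) at Li+ sites at day 7, and from 9.93 to 10.46 (median 10.24) and from 9.83 to 10.56 (median 10.25) at day 28. Both sites of rat 4 were the lowest, and the days overlapped. The difference over both sites was 0.34 (SE 0.194, limma adjusted p = 0.402). Odc1, the first enzyme of polyamine synthesis, had the least spread among the genes above the median signal, from 10.51 to 10.81 at day 7 and from 10.59 to 10.98 at day 28 over both implants. Its difference was 0.11 (SE 0.0593, limma adjusted p = 0.382). At Li+ sites Ass1 (0.40, SE 0.173) and Odc1 (0.14, SE 0.0641) had an unadjusted p of 0.0395 and 0.0469 and limma adjusted p of 0.282 and 0.303.

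The 3 proline-forming enzymes had lower means at day 28 with both implants. Pycr1, which makes proline from pyrroline carboxylate in the last step, ranged from 8.36 to 9.45 (median 8.65) at Ctrl sites and from 8.40 to 8.99 (median 8.71) at Li+ sites at day 7. At day 28 it ranged from 7.67 to 8.54 (median 8.26) and from 7.81 to 8.47 (median 8.20). The arrays of the 2 days overlapped, whereas the means over both sites of a rat did not. The Pycr1 difference was -0.58 (SE 0.145, 1.49-fold, limma adjusted p = 0.0722, exact permutation p = 0.00216, 6 against 6 rats).

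Oat, which turns ornithine into the precursor of proline and of glutamate, ranged from 10.34 to 10.84 (median 10.62) at Ctrl sites and from 10.44 to 10.71 (median 10.61) at Li+ sites at day 7, and from 10.16 to 10.42 (median 10.29) and from 10.27 to 10.55 (median 10.33) at day 28. Its difference over both sites was -0.25 (SE 0.0661, 1.19-fold, limma adjusted p = 0.0825, exact permutation p = 0.00433). Oat and Pycr1 had an unadjusted p under 0.05 with either implant and over both sites in all 12 fits that left out a rat. Aldh18a1, which starts proline synthesis from glutamate, ranged from 9.51 to 10.23 (median 9.82) at Ctrl sites and from 9.55 to 9.99 (median 9.72) at Li+ sites at day 7, and from 9.35 to 9.72 (median 9.47) and from 9.35 to 9.87 (median 9.50) at day 28. Its difference was -0.28 (SE 0.0995, limma unadjusted p = 0.0158, adjusted p = 0.172). Days overlapped for both genes.

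Prodh takes the first step of proline breakdown, in mitochondria. Its signal ranged from 8.24 to 9.31 (median 9.16) at Ctrl sites and from 8.52 to 9.38 (median 9.13) at Li+ sites at day 7, and from 8.93 to 9.49 (median 9.21) and from 8.73 to 9.46 (median 9.14) at day 28. Rat 4 was the lowest at both sites, and the difference of 0.16 (SE 0.143, limma adjusted p = 0.625) was within the spread between rats.

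**Figure D3:**
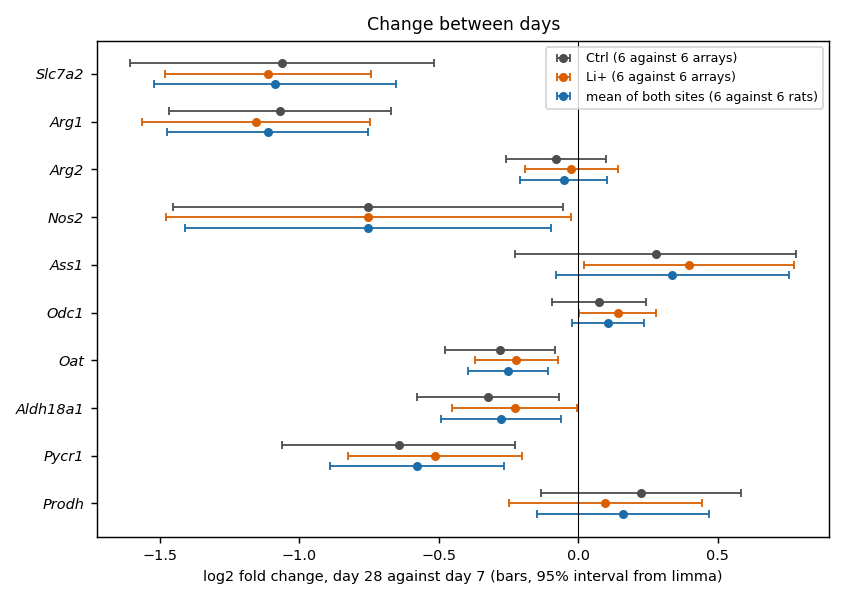
Log2 fold change of each of the 10 genes from day 7 to day 28 with its 95% interval from limma, at Ctrl sites (grey), at Li+ sites (orange) and for the mean of both sites of a rat (blue), 6 against 6 in each. The intervals of Slc7a2, Arg1, Nos2, Oat, Aldh18a1 and Pycr1 lie below 0 in all 3 comparisons.

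Counted over the list, 6 of the 10 genes were lower at day 28 at an unadjusted p under 0.05 in each of the 3 comparisons, and these were Slc7a2, Arg1, Nos2, Oat, Aldh18a1 and Pycr1. The share of all probe sets that were lower at that threshold was 5.85% at Ctrl sites, 7.38% at Li+ sites and 7.87% over both sites. Higher at that threshold were 0 of the 10 at Ctrl sites (5.51% of all probe sets), 2 at Li+ sites (8.72%) and 0 over both (9.24%). The count of 8 in either direction at Li+ sites was 4 without rat 11, 21, 23 or 27 and 5 without rat 4, 15 or 30. At an adjusted p under 0.05 there were 0 of the 10 at Ctrl sites (0.0959% of all), 2 at Li+ sites (0.279%) and 2 over both (0.965%). The median difference of the 10 genes over both sites was -0.26, beside 0.02 for all probe sets. The 3 comparisons share arrays, and the pathway was chosen with results of these samples known, so these counts are not independent evidence of a direction.

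Whether lithium changed these genes was examined within rats, so an effect of lithium shared by both sites of a rat would not show. Over both days Slc7a2 had the lowest unadjusted p of the 10 genes (0.140, limma), with Li+ above Ctrl in 8 of 12 rats and a mean difference of 0.12 (SE 0.0754, 95% interval -0.04 to 0.28, limma adjusted p = 0.963). At day 28 it was higher at the Li+ site in 5 of 6 rats, and the exception, rat 23 (-0.38), carried one of the muscle-rich Ctrl arrays. Rat 29, with another such Ctrl array, had a difference of 0.02. With group means removed, Slc7a2 correlated with the muscle score at 0.02, and the part of muscle in these differences was not tested. With 1 rat left out, the day 28 difference of Slc7a2 ranged from 0.05 without rat 27, which carried the muscle-rich Li+ array (limma unadjusted p = 0.608), to 0.19 without rat 23 (unadjusted p = 0.0118, adjusted p = 0.956). Rat 23 was the one rat with the opposite sign, so the latter value is a description. Nos2 differed by -0.15 (95% interval -0.41 to 0.10) and Arg1 by -0.07 (-0.24 to 0.10), and the other 7 genes by between -0.06 and 0.04.

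Of the 10 genes, 0 differed between Li+ and Ctrl at an adjusted p under 0.05 at day 7, at day 28 or over both days, where 0.00274%, 0% and 0% of all probe sets did. At an unadjusted p under 0.05 the count was also 0 of 10 in each, beside 3.63%, 4.32% and 4.49% of all probe sets. The lowest adjusted p among the 10 genes was 0.963. The change from day 7 to day 28 was compared between the implants by an interaction term, and 0 of the 10 genes had an unadjusted p under 0.05 (3.62% of all probe sets) or an adjusted one (0%). The interval of this difference was -0.39 to 0.29 for Slc7a2 and -0.44 to 0.27 for Arg1, against changes of about 1.1 in both, and it was widest for Nos2 (-0.53 to 0.54). The intervals leave room for differences of these sizes and do not show that the implants acted alike.

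**Figure D4:**
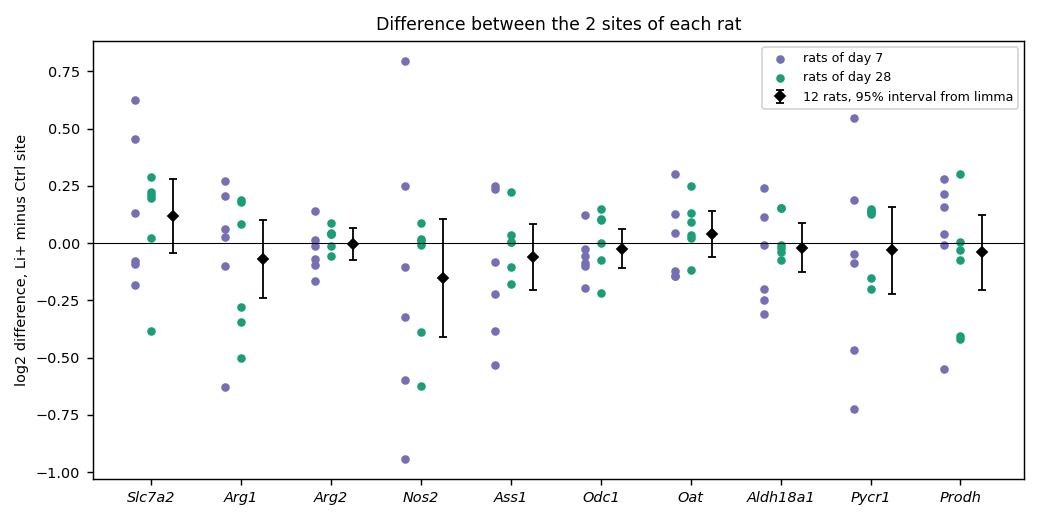
Difference in log2 signal between the Li+ and the Ctrl site of each of 12 rats for the 10 genes (violet, rats of day 7; green, rats of day 28), with the mean and its 95% interval from limma in black. Every interval includes 0, and Nos2 has the widest spread, with an SD of 0.483.

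The sites of a rat varied together. With day means removed, the signals of both sites of a rat correlated over 12 rats at 0.846 for Ass1, 0.821 for Slc7a2, 0.811 for Arg2 and 0.720 for Nos2, and at 0.375 for Oat, as a description. Rank correlations were 0.699 for Ass1, 0.790 for Slc7a2, 0.503 for Arg2, 0.462 for Nos2 and 0.420 for Oat, so those of Arg2 and Nos2, with single rats (10 and 5) far above the rest, were well below their r. With group means removed, some of the genes fell into blocks that ran against each other over the 24 arrays. Oat correlated with Pycr1 at 0.816 and Pycr1 with Aldh18a1 at 0.730. Ass1 correlated with Prodh at 0.806. Across these blocks, Pycr1 correlated with Prodh at -0.786 and with Ass1 at -0.735, so sites with more Pycr1 signal tended to have less of Prodh and Ass1. Aldh18a1 correlated less closely with both, at -0.630 with Prodh and -0.454 with Ass1. Odc1 correlated at -0.757 with Slc7a2, -0.657 with Pycr1, -0.625 with Oat and 0.609 with Ass1. Since both sites of a rat are among these arrays, these values too are a description.

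Marker genes of cell types moved with these blocks. With group means removed, Pycr1 correlated with a score of 6 osteoblast genes at 0.90 and with one of 4 fibroblast genes at 0.89, Oat with the same scores at 0.73 and 0.77, and Ass1 and Prodh with a score of 7 neutrophil genes at 0.92 and 0.91. Other scores were as close: that of 3 endothelial genes correlated at 0.88 with Pycr1, 0.78 with Oat and -0.83 with Ass1, that of 5 proliferation genes at -0.84 with Pycr1, and that of 4 erythroid genes at -0.77 with Oat and -0.69 with Slc7a2. Rat 4 was the clearest case, with the highest fibroblast scores of day 7 at each implant (0.75 and 0.58), the lowest neutrophil scores (-0.62 and -0.49), the highest Pycr1 signals (9.45 and 8.99) and the lowest of Ass1 and Prodh. Slc7a2 correlated with the fibroblast score at 0.70, the osteoclast score at 0.65, the osteoblast score at 0.58 and the proliferation score at -0.58. Arg1 correlated with the fibroblast score at 0.50. With a score of 6 macrophage genes, Slc7a2 correlated at 0.47 and Arg1 at 0.34. Oat (0.51) and Pycr1 (0.35) were as close to that score, and Odc1 (-0.57), Ass1 (-0.55) and Arg2 (-0.53) ran against it. The correlations of Nos2 with 10 such scores ran from -0.22 (erythroid) to 0.25 (B cell). The part of cell makeup in the results above was not tested.

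Between days, 4 of 4 fibroblast genes (Pdgfra, Dcn, Lum and Postn) were lower at day 28 over both sites at an unadjusted p under 0.05, with a median of -0.53, and so were 3 of 6 osteoblast genes (median -0.29). Of 6 macrophage genes, 3 were lower (Adgre1, Cd68 and Csf1r) and 1, Cd163, was higher, with a median of -0.22. The macrophage score ranged from -0.16 to 0.16 at Ctrl sites and from 0.00 to 0.18 at Li+ sites at day 7, and from -0.31 to 0.03 and from -0.15 to 0.08 at day 28. The fibroblast score ranged from -0.27 to 0.75 and from -0.01 to 0.58 at day 7, and from -0.93 to 0.28 and from -0.84 to 0.12 at day 28. Lower as well were 2 of 3 osteoclast genes (median -0.32) and 2 of 3 endothelial genes (median -0.21). Higher at day 28 were 3 of 3 B cell genes (median 0.42), 3 of 5 muscle genes (median 1.04), 3 of 5 proliferation genes (median 0.25), 2 of 4 erythroid genes (median 0.26) and 2 of 7 neutrophil genes (median 0.14). Of all probe sets, 7.87% were lower and 9.24% higher over both sites at that unadjusted threshold. None of the marker genes passed at an adjusted p under 0.05 (0.965% of all probe sets). Over both sites Slc7a2 and Arg1 differed between days by -1.09 and -1.11. The largest difference among the fibroblast and macrophage genes was that of Postn (-0.71), and the muscle genes Mb and Acta1 differed by 1.43 and 1.16. The part of cell makeup in these differences was not tested.

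A wider list of 58 genes around the pathway, chosen by function with the same earlier results known, had 49 measured genes in 7 groups. Over both sites 10 were lower and 2 higher at day 28 at an unadjusted p under 0.05, and 1 passed correction over all probe sets. The shares of all probe sets were 7.87%, 9.24% and 0.965%, so the 2 higher genes were fewer than that share of 49 would give. That gene was P4ha3, a catalytic subunit of collagen prolyl hydroxylase, the enzyme that acts on proline already built into collagen, which fell by 0.87 (SE 0.148, 1.82-fold, limma adjusted p = 0.0250). The rest of its group were lower as well at an unadjusted p under 0.05: P4ha2 by -0.68, P4ha1 by -0.65 and P4hb by -0.20 (adjusted p 0.0662 to 0.0825). The creatine group, which draws on arginine for its first step, held differences of both signs. The creatine transporter Slc6a8 (-0.80, adjusted p = 0.0564) and brain-type creatine kinase Ckb (-0.68, adjusted p = 0.0544) were lower with limma, without overlap between the rats of the days. The muscle-type kinase Ckm is itself one of the 5 muscle genes scored above and had a difference of 1.04 (limma adjusted p = 0.334).

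The other 5 groups were read at the same unadjusted p under 0.05 over both sites. In amino acid transport 2 of 8 measured genes were lower, the exchangers Slc7a6 (-0.26) and Slc7a7 (-0.12). In the conversion of proline and glutamate 2 of 7 were lower, Pepd, which releases proline from dipeptides (-0.19), and glutamate dehydrogenase Glud1 (-0.16). In polyamine synthesis and turnover 2 of 11 were higher, Amd1, which supplies the aminopropyl donor (0.19), and Oaz1, the antizyme that restrains Odc1 (0.14). Of 7 other genes of nitric oxide synthesis and control and 6 of the urea cycle, 0 passed at an unadjusted p under 0.05. Between Li+ and Ctrl 0 of the 49 passed at that threshold at day 7 and over both days, and 1 did at day 28, beside 3.63%, 4.49% and 4.32% of all probe sets. That gene, Pts, which acts in the synthesis of the nitric oxide synthase cofactor tetrahydrobiopterin, was higher at the Li+ site in 6 of 6 rats by 0.14 (SE 0.0539, limma unadjusted p = 0.0310, adjusted p = 0.999).

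**Figure D5:**
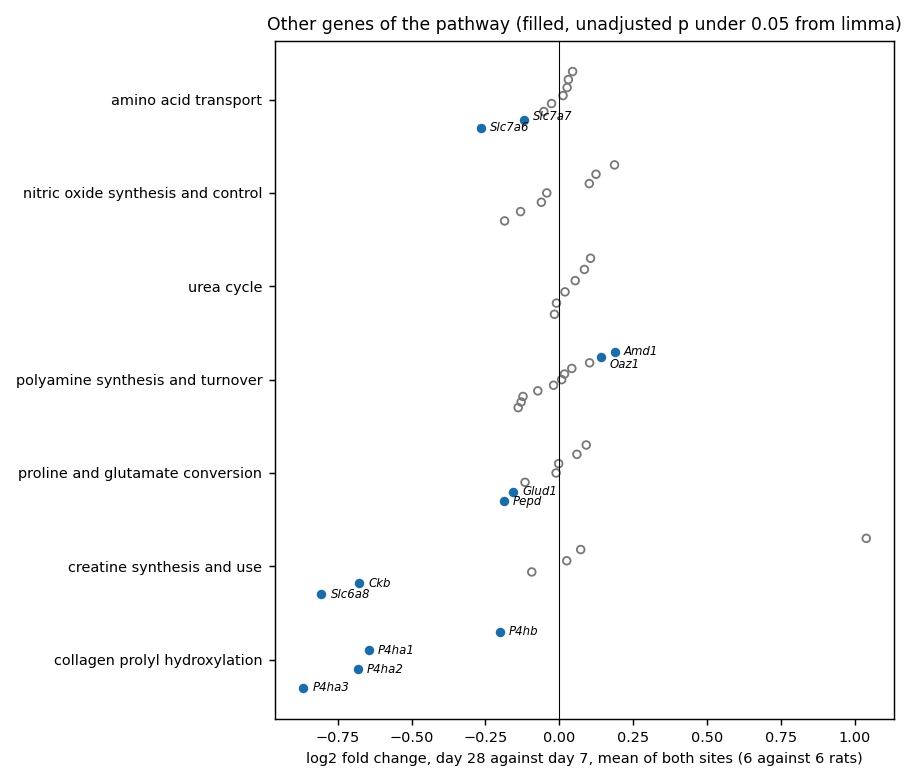
Log2 fold change from day 7 to day 28, mean of both sites in 6 against 6 rats, for 49 other genes in 7 groups around the pathway; filled points have an unadjusted p under 0.05 from limma. All 4 collagen prolyl hydroxylase genes lie to the left of 0, from -0.87 to -0.20.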

How the data were processed

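Peri-implant bone of 12 rats was measured on 24 Affymetrix Rat Gene 2.0 ST arrays, 1 for each Li+ and Ctrl site. The deposited values are log2 signals that the authors normalized and summarized by RMA in Expression Console 1.1.2; they were not normalized again, and 0 columns were unmapped. RMA evens out the arrays, so a shift common to all genes is not visible, and arrays have no read depth: their number limits the precision. The labels and the study's methods differ on the RNA kit and amount, and no batch or hybridization date is given in the sources used here.

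After 190 control probe sets were left out, 36495 were tested with limma 3.58.1 in R 4.3.3 (figures: python 3.11.15, matplotlib 3.10.9), with Benjamini-Hochberg adjustment over all of them. Li+ was compared with Ctrl with the rat as a fixed block. Days were compared within each implant and on the means of both sites of a rat. The comparisons were tested on simulated data with normal noise and added changes of a fixed size. That does not show how they perform on changes below that size or with single outlying rats. Exact permutation tests were two-sided; 6 pairs cannot go below p = 0.0312. Sites were paired by the rat number in the sample titles. After group means were removed, 11 of 12 same-rat pairs of arrays correlated above 0.1 (median 0.279, lowest 0.0675), and 60 pairs of different rats had a median of -0.0347. Scores are means over marker genes of their log2 signals less the mean of 24 arrays. Each gene is given by the probe set that carries its symbol alone; each of the 10 had 1. All 10 are named. Genes of the wider list are named at an unadjusted p under 0.05 between days, up to 3 a group; P4hb, Ckm, Pts and the marker genes were named after their values were seen. For Arg1 and Slc7a2, the 5 genes of highest r are named. The members, lists and alternatives were chosen with earlier results of these data known. Promoters were taken from RefSeq (GRCr8).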

Additional observations from a re-analysis of the deposited data

Results flagged for a closer look

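In 2 of 40 sets of 6 arrays (10 genes in 4 groups), a single array stood apart from the rest by Dixon's criterion, which chance meets in about 1 of 20 sets. Arg2 at the Ctrl site of rat 10 at day 7 had a signal of 7.11, with the nearest array at 6.73 and the lowest at 6.59, and the Li+ site of the same rat was also the highest of its group at 7.01. Nos2 at the Ctrl site of rat 23 at day 28 had a signal of 9.07, with the nearest at 8.42 and the lowest at 8.05. That array had the highest muscle score of all (4.71). The Li+ site of the same rat was the highest of its group only by little, at 8.441 beside 8.435 for rat 30.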

How the results depend on the processing

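Same-numbered arrays come from the same rat, and the comparison of Li+ with Ctrl used the rat as a block. With no replicate block the Slc7a2 difference over both days was again 0.12, and the block changed no call of the 10 genes. Between days, a random block for the rat on 24 arrays took the count at an adjusted p under 0.05 at Ctrl sites from 0 to 2, as did array weights, and centering, testing single-symbol probe sets, an intensity trend with a robust prior, and leaving out rats 10 and 23 each took it to 1, Arg1. At Li+ sites that count fell from 2 to 1 among probe sets above the median signal, where Arg1 is not tested, and to 0 with the methods' t-test, without rats 10 and 23, and without rats 23, 27 and 29. Over both sites it was 4 among single-symbol probe sets, where Oat and Pycr1 passed besides Slc7a2 and Arg1. It was 0 with the methods' t-test or without rats 23, 27 and 29. Leaving out 1 rat at a time, it ranged from 0 to 1 at Ctrl sites (Arg1, without rat 10), 0 to 2 at Li+ sites and 0 to 3 over both (0 without rat 29; 3 without rat 10, where Oat also passed). At an unadjusted p under 0.05, 8 of the 10 at Li+ sites became 5 with the methods' t-test, 3 without rats 23, 27 and 29, and 4 to 8 with 1 rat left out. Between Li+ and Ctrl at day 28 it went from 0 to 1 (Slc7a2) without rats 10 and 23, to 2 (Slc7a2 and Prodh) without rats 23, 27 and 29, and over both days and at day 28 it ranged from 0 to 1 with 1 rat left out, namely Slc7a2 without rat 23 and, over both days, Nos2 without rat 11. The direction of Slc7a2, Arg1, Nos2, Oat, Aldh18a1 and Pycr1 between days was the same under every alternative. Averaging probe sets per gene gave no other value, since each gene had 1. The cause of these changes was not tested, other than fewer rats or fewer probe sets by construction.

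Signs that turned belonged to differences smaller than their SE, and not all of these were near 0. The largest was that of Nos2 between Li+ and Ctrl at day 7 (-0.15, SE 0.201). At day 7 between Li+ and Ctrl, Oat (0.01) was -0.00107 with centering, -0.0328 with array weights and -0.0122 without rats 10 and 23, and Arg2 was 0.00464 with array weights. At day 28 Ass1 was 0.00753 with centering, 0.0188 with array weights and 0.0519 without rats 23, 27 and 29, and Odc1 -0.0180 without rats 10 and 23. Over both days array weights and leaving out rats 10 and 23 gave 0.0120 and 0.00630 for Arg2 and 0.00469 and 0.00990 for Aldh18a1. Between days, without rats 10 and 23, Arg2 was 0.0447 at Li+ sites and 0.0193 over both, and Prodh at Li+ sites was -0.00337 without rats 23, 27 and 29. The difference between the changes was 0.103 with array weights, 0.107 without rats 10 and 23 and 0.0675 without rats 23, 27 and 29 for Slc7a2, -0.0704 with array weights for Nos2 and 0.00770 without rats 10 and 23 for Arg1. With 1 rat left out, values between Li+ and Ctrl ranged at day 7 from -0.0866 to 0.0933 for Arg1, -0.344 to 0.00412 for Nos2, -0.0479 to 0.0413 for Oat, -0.0287 to 0.137 for Prodh and -0.226 to 0.0275 for Pycr1. At day 28 they ranged from -0.0472 to 0.0331 for Ass1 and -0.0180 to 0.0551 for Odc1. Over both days they ranged from -0.0443 to 0.00554 for Aldh18a1, -0.0167 to 0.0112 for Arg2, -0.0715 to 0.00576 for Prodh and -0.0847 to 0.0307 for Pycr1. Between days they ranged at Li+ sites from -0.0518 to 0.0384 for Arg2 and -0.00324 to 0.176 for Prodh, over both from -0.0779 to 0.0166 for Arg2, and for the difference between the changes from -0.155 to 0.192 for Nos2 and -0.115 to 0.0468 for Slc7a2.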
